A study of Spinacia oleracea with 24 samples.

Results

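The genes described here are 3 beta-amylase genes of spinach (Spinacia oleracea), chosen by their identifiers in the deposited expression table. They are BAM1 (Spo15691), BAM3 (Spo09720) and BAM9 (Spo09821), 3 of the 25494 genes in that table. The choice was made with earlier results of these data known. The symbols come from Swiss-Prot names that the table gives by similarity to proteins of other plants. Leaves of 48-day-old plants of the cultivar Space were collected under 8 h of light per day at the end of dark (T1), the middle of light (T2), the end of light (T3) and the middle of dark (T4). Plants received 200 ppm nitrogen (HN) or 50 ppm nitrogen (LN), and each of the 8 groups (nitrogen level by time) held 3 plants. Messenger RNA of these leaves was sequenced in 24 directional libraries.

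Beta-amylases remove maltose units from the ends of the glucan chains of starch. In leaves, starch is stored in the chloroplast during the light and broken down during the following dark period, and the maltose is exported to the cytosol. In Arabidopsis, BAM3 is the main active enzyme of this nightly breakdown in mesophyll chloroplasts. BAM1 is an active chloroplast enzyme known in the same species for starch breakdown in guard cells and under osmotic stress. BAM9 belongs to the same family but lacks catalytic activity.

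The libraries held 18369094 to 25252705 fragments assigned to genes. Levels are given in FPKM, fragments per kilobase of gene length scaled for library size, as mean ± SD with n = 3 plants. Changes are differences of log2(FPKM + 1), which understate the change of genes with low values, and a gene passed a test at a Benjamini-Hochberg adjusted p under 0.05 in limma over the 18110 genes tested. The 24 genes of photosynthetic leaf cells (antenna proteins, Rubisco small subunits, Rubisco activase) were all tested. Their summed level was 15498 to 113185 FPKM, with the lowest value in LN_T4 replicate 3 and 36558 and 45842 in the other LN_T4 plants. The 4 Casparian strip genes of root endodermis reached at most 0.705 FPKM in any library, and 1 of them (CASP5, Spo21853) was at 0 in all. The libraries farthest from the others of their group were LN_T1 replicate 2, LN_T3 replicate 3 and LN_T4 replicate 3, with correlations of 0.934, 0.915 and 0.922 with the mean of the other plants. Results on BAM1, BAM3 and BAM9 that turn on them are given with and without them. They were picked from these same expression values, and leaving out far plants tends to lower the estimated spread. Adjusted p-values without them therefore lean toward passing. In whole leaves, fewer cells of a type and less RNA per cell cannot be told apart.

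All 3 genes were well expressed and passed the filter on low values. BAM1 lies on chromosome 4 of the Sp75 genome, 7180769 to 7186021, plus strand, with a gene length of 2288 bases in the table. BAM3 lies on chromosome 6, 42703759 to 42706796, minus strand, with 2240 bases. BAM9 lies on chromosome 3, 96201378 to 96205609, plus strand, with 1943 bases. The table gives each of them the Pfam domain of glycosyl hydrolase family 14, the family of beta-amylases, and lists the inactive BAM9 with the same domain. Over all 24 libraries BAM1 averaged 40.9 FPKM, BAM3 98.3 FPKM and BAM9 52.9 FPKM, above 85.4%, 94.4% and 88.7% of the genes tested. The smallest number of fragments behind a value was 220 for BAM1, 419 for BAM3 and 201 for BAM9.

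BAM1, the chloroplast beta-amylase known from guard cells, was highest at the end of dark at both nitrogen levels and lower by the end of light. In HN the 3 plants of T1 held 26.1, 27.2 and 29.2 FPKM, and those of T2 held 30.8, 16.8 and 15.96 FPKM. At T3 the level was 4.56, 5.47 and 7.59 FPKM, and at T4 it was 5.66, 6.76 and 4.87 FPKM. Thus every plant of T1 and T2 lay above every plant of T3 and T4, while T1 and T2 overlapped, as did T3 and T4. The group means were 27.5 ± 1.55, 21.2 ± 8.35, 5.88 ± 1.56 and 5.76 ± 0.951 FPKM, a 4.77-fold range. Of the neighbours in this order, T2 and T3 differed (log2 change -1.65, adjusted p = 0.0034). T1 and T2 did not pass (-0.42, adjusted p = 0.329), nor did T3 and T4 (-0.01, adjusted p = 0.989).

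In LN the end of dark stood far above the rest of the day for BAM1. The 3 plants of T1 were at 117, 236 and 288 FPKM, against 20.5, 32.9 and 29.3 FPKM at T2. The T3 plants were at 11.8, 13.3 and 9.71 FPKM and the T4 plants at 11.8, 11.1 and 20.4 FPKM. The lowest plant at the end of dark was above every plant of the other 3 times, and the end of light and the middle of dark overlapped. The means of 214 ± 87.8, 27.6 ± 6.34, 11.6 ± 1.82 and 14.4 ± 5.17 FPKM spanned an 18.4-fold range. T1 and T2 differed (-2.84, adjusted p = 7.2e-06), whereas T2 against T4 (-0.91, adjusted p = 0.0712), T2 against T3 (-1.16, adjusted p = 0.0536) and T3 against T4 (0.25, adjusted p = 0.638) did not pass. The fall from T2 to T3 passed without LN_T1 replicate 1 (adjusted p = 0.0180), LN_T4 replicate 3 (0.0370), HN_T2 replicate 1 (0.0354) or LN_T1 replicate 3 (0.0424), which all change the shared estimate of spread. It also passed among genes with a mean of at least 5 FPKM (0.0427) and with voom, limma's weighted fit to fragment counts (0.0388). The fall from T2 to T4 passed without LN_T1 replicate 1 (0.0342), LN_T4 replicate 3 (0.0310) or the 3 farthest libraries (0.0253).

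BAM3, named after the main active enzyme of nightly starch breakdown, had another daily course, lowest in the middle of light at both nitrogen levels. In HN the plants of T1 were at 313, 283 and 268 FPKM and those of T2 at 48.8, 21.8 and 47.6 FPKM. The level was 101, 106 and 149 FPKM at T3 and 161, 128 and 157 FPKM at T4. Every plant of T2 was below every plant of the other times, every plant of T1 was above them, and T3 overlapped T4. The means were 288 ± 22.9, 39.4 ± 15.3, 119 ± 26.7 and 149 ± 18.3 FPKM, a 7.30-fold range. The fall from T1 to T2 (-2.92, SE 0.52, adjusted p = 0.00054) and the rise from T2 to T4 (1.97, adjusted p = 0.0105) passed, the latter at 0.0622 without HN_T2 replicate 2. No neighbours in the order T1, T4, T3, T2 differed by this test (adjusted p = 0.285, 0.700 and 0.121). The fall from T1 to T3 was -1.29 (adjusted p = 0.0645) and passed without LN_T1 replicate 2 (0.0221), LN_T1 replicate 3 (0.0420) or LN_T4 replicate 3 (0.0327). The rise from T2 to T3 of 1.63 passed without LN_T1 replicate 2 (0.0381). With only the HN libraries in the fit, T3 against T1, T4 against T1 and T3 against T2 all passed (adjusted p = 0.0030, 0.0391 and 0.0060), as they did without the 3 farthest libraries (0.0028, 0.0470 and 0.0039).

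In LN the BAM3 plants scattered widely at 3 of the 4 times. The T1 plants were at 31.7, 113 and 17.9 FPKM, with LN_T1 replicate 2 above the others, and the T2 plants at 8.96, 8.77 and 10.5 FPKM. The level was 49.8, 111 and 52.7 FPKM at T3, and 78.0, 74.1 and 19.5 FPKM at T4, with LN_T4 replicate 3 below the others. The middle of light was again below every plant of the other times, and those 3 times overlapped. The means were 54.1 ± 51.2, 9.42 ± 0.970, 71.0 ± 34.3 and 57.2 ± 32.7 FPKM, a 7.54-fold range. T2 was lower than T1 (-1.99, adjusted p = 0.0117), T3 (2.69 from T2 to T3, adjusted p = 0.0062) and T4 (2.25 from T2 to T4, adjusted p = 0.0125). T1, T3 and T4 did not pass against each other (adjusted p = 0.340 for T3 against T1, 0.847 for T4 against T1 and 0.633 for T4 against T3).

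These LN calls of BAM3 depended on single plants. The difference of T2 from T1 was -1.26 (adjusted p = 0.0975) without LN_T1 replicate 2. The difference of T3 from T2 did not pass without LN_T3 replicate 2 (0.0567), nor T4 from T2 without LN_T2 replicate 2 (0.0517) or LN_T4 replicate 1 (0.0847). Without LN_T4 replicate 3 the rise from T2 to T4 was 2.89. With only the LN libraries in the fit, these 3 differences had adjusted p = 0.0713, 0.0985 and 0.0945. Without LN_T1 replicate 2, T3 was above T1 by 1.44 (adjusted p = 0.0402). Without the 3 libraries farthest from their groups, T3 and T4 were both above T1 in LN, by 1.60 and 1.63 (adjusted p = 0.0062 and 0.0088).

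BAM9, the catalytically inactive member, had its peak at the end of dark and its trough at the end of light at both nitrogen levels. In HN its level was 212, 142 and 240 FPKM at T1 and 32.7, 29.4 and 31.3 FPKM at T2. It was 7.95, 11.4 and 12.1 FPKM at T3 and 42.6, 31.3 and 27.8 FPKM at T4. All T1 plants were above all others and all T3 plants were below all others, while T2 and T4 overlapped. The means of 198 ± 50.4, 31.1 ± 1.69, 10.5 ± 2.22 and 33.9 ± 7.76 FPKM covered an 18.9-fold range. From T1 to T3 the change was -4.10 (SE 0.26, adjusted p = 1.6e-09), and the return from T3 to T4 was 1.60 (adjusted p = 0.00046). T4 and T2, neighbours in the order, did not pass (0.10 from T2 to T4, adjusted p = 0.818), whereas T1 against T4 and T2 against T3 did (adjusted p = 3.6e-06 and 0.0018).

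In LN the order of BAM9 was the same, T1, T4, T2, T3, within an 8.98-fold range. The plants were at 78.1, 87.0 and 85.1 FPKM at T1 and at 21.3, 29.7 and 25.0 FPKM at T2. They were at 5.04, 10.1 and 12.7 FPKM at T3 and at 28.0, 39.4 and 26.9 FPKM at T4. T1 was again above and T3 below all other plants, with T2 and T4 overlapping. The means were 83.4 ± 4.69, 25.4 ± 4.22, 9.29 ± 3.90 and 31.5 ± 6.93 FPKM. T3 lay below T1 by a log2 change of -3.12 (adjusted p = 6.7e-08), and T4 rose from T3 by 1.72 (adjusted p = 0.00024). T4 against T1 and T3 against T2 passed (-1.40 and -1.43, adjusted p = 0.0019 and 0.0035), and T4 against T2 did not (0.29, adjusted p = 0.539).

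**Figure D1:**
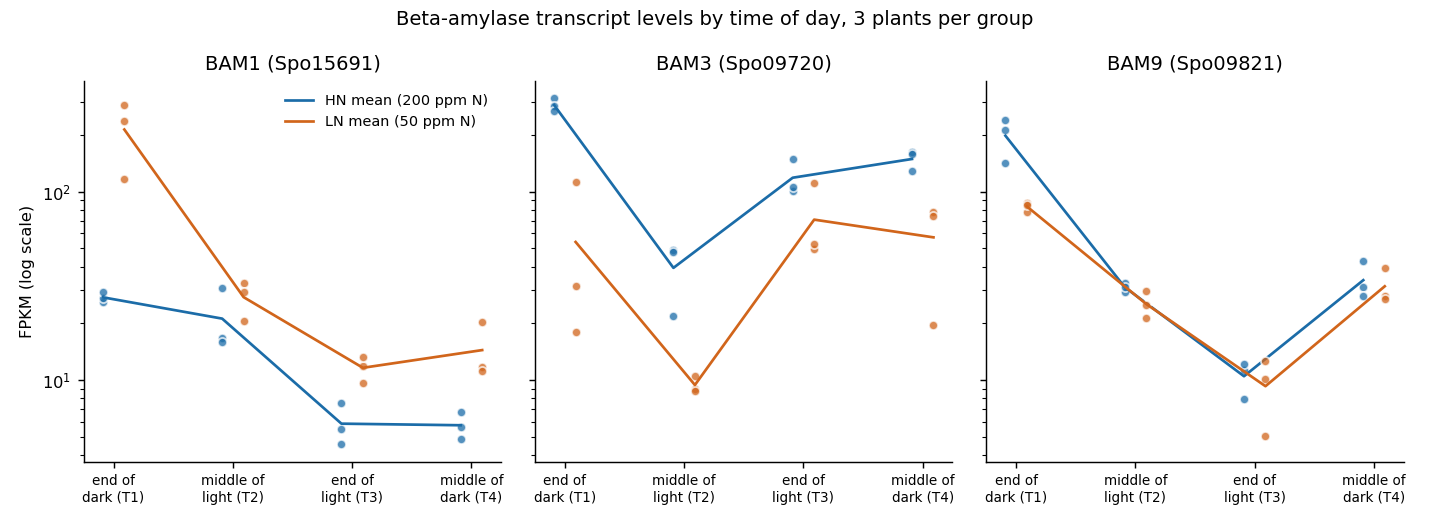
Level of each gene in FPKM (log axis) over the day, in HN and LN, with T1 the end of dark, T2 mid light, T3 the end of light and T4 mid dark. Points are single plants and lines join the group means, and BAM1 peaks at 214 FPKM in LN_T1, BAM3 at 288 FPKM in HN_T1 and BAM9 at 198 FPKM in HN_T1.

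All 3 genes changed with time of day at both nitrogen levels. The adjusted p of the moderated F test over the 4 times was 2.0e-05 for BAM1, 0.0016 for BAM3 and 1.1e-08 for BAM9 in HN, where 38.9% of all genes tested passed. In LN it was 4.3e-08, 0.0028 and 6.6e-07, against 28.7% of all genes. The share of all genes that passed differed widely between pairs of times, and it stands beside each BAM call. In HN, BAM3 and BAM9 fell from T1 to T2, where 26.4% of genes passed. BAM1 and BAM9 fell from T1 to T3, where 32.7% passed, 15.7% higher and 17.1% lower. The same pair of genes was lower at T4 than at T1, a comparison passed by 7.79% of genes, and lower at T3 than at T2, passed by 2.77%. From T2 to T4, BAM1 fell and BAM3 rose, against 23.7% of genes, and from T3 to T4 BAM9 rose, against 18.4%. In LN all 3 genes fell from T1 to T2, where 20.0% of genes passed. BAM1 and BAM9 fell from T1 to T3, where 26.0% passed, 12.2% higher and 13.8% lower, and were lower at T4 than at T1, where 7.49% passed. From T2 to T3, BAM3 rose and BAM9 fell, against 1.88% of genes. From T2 to T4, BAM3 rose, against 7.66%, and from T3 to T4, BAM9 rose, against 13.1%. Pairs of times within a nitrogen level share libraries, so these counts are not independent of each other.

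Rescaling every library to the same sum of FPKM moved the median change of all genes, by up to 0.343 on the log2 scale (T2 to T4 in HN). No BAM pair call was lost or gained with it. The difference of BAM1 between T3 and T4 in HN, which did not pass, turned from -0.01 to 0.22.

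Nitrogen supply moved the 3 genes in different directions at the end of dark, BAM1 up and BAM3 and BAM9 down in LN. The HN plants of BAM1 lay at 26.1 to 29.2 FPKM and the LN plants at 117 to 288 FPKM, a 7.77-fold difference of the means, with no overlap. BAM3 lay at 268 to 313 FPKM in HN and at 17.9 to 113 FPKM in LN, 5.32-fold lower in LN, also with no overlap. BAM9 lay at 142 to 240 FPKM in HN and 78.1 to 87.0 FPKM in LN, 2.37-fold lower in LN and again not overlapping. The log2 changes from HN to LN were 2.82 (SE 0.30, adjusted p = 4.7e-05), -2.80 (SE 0.52, adjusted p = 0.0034) and -1.20 (SE 0.26, adjusted p = 0.0079). All 3 genes passed in a comparison that 9.97% of the genes tested passed, 5.10% higher and 4.86% lower in LN. By the size of the change among all genes tested, BAM1 ranked 42nd of those higher in LN, BAM3 9th of those lower and BAM9 344th. The 3 genes were chosen with earlier results of these data known, so these calls and ranks are descriptions and not independent support.

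The call of BAM3 at the end of dark depended on which libraries gave the spread. With only the 6 libraries of that time in the fit it had the same change and an adjusted p of 0.0605, while BAM1 and BAM9 still passed. With the replicate number as a block in that fit, all 3 passed (0.0363 for BAM1, 0.0447 for BAM3 and 0.0447 for BAM9). More of all genes also passed with the block than without it. The block was chosen after seeing the data, from weak correlations between same-numbered T1 plants (0.145, 0.414 and 0.136). The labels do not say what a replicate number shares, so the blocked fit does not settle the call of BAM3. Without LN_T1 replicate 2, the LN plant with the highest BAM3 level, the change was -3.54 (adjusted p = 0.00041), and without LN_T1 replicate 3, the lowest, it was -2.24 (adjusted p = 0.0326).

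**Figure D2:**
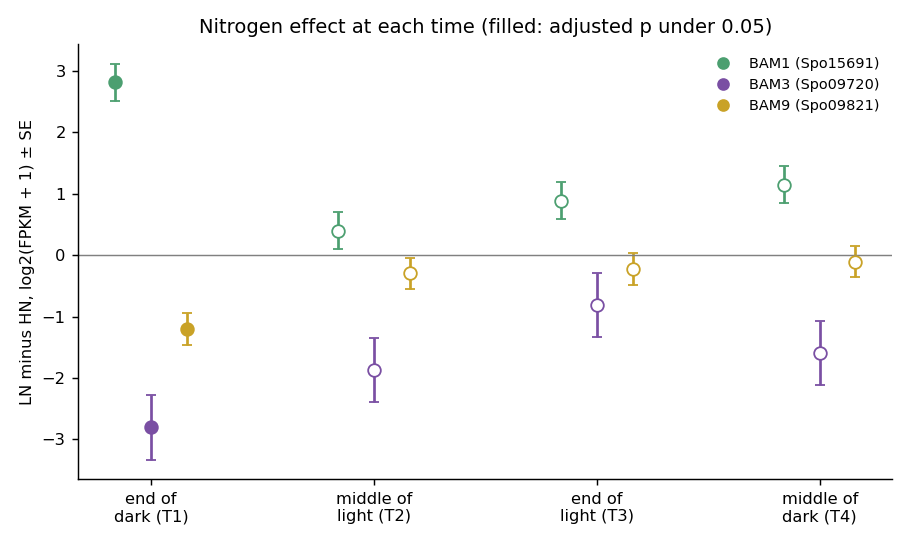
Log2 change from HN to LN of each gene at each of the 4 times, with 1 SE on each side and filled symbols where the adjusted p was under 0.05. BAM1 lies above 0 and BAM3 below 0 at every time, with 2.82 and -2.80 at the end of dark.

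At the other times the means kept those directions with smaller differences, and no gene passed. In the middle of light BAM1 was at 15.96 to 30.8 FPKM in HN and 20.5 to 32.9 in LN, overlapping (0.40, adjusted p = 0.705). BAM3 was at 21.8 to 48.8 FPKM in HN and 8.77 to 10.5 in LN, which did not overlap but did not pass (-1.87, adjusted p = 0.354). In this comparison 0.00552% of all genes passed, which is 1 gene. Without the 3 farthest libraries, none of which is of that time, the same BAM3 change passed at 0.0151, and 25 genes passed in all. At T3 0.00552% of genes passed as well. There BAM1 was higher in LN in every plant (0.89, adjusted p = 0.580), and BAM3 overlapped (-0.81, adjusted p = 0.776). In the middle of dark, where 0.370% of genes passed, BAM1 was again higher in every LN plant (2.51-fold, log2 change 1.15, adjusted p = 0.0770) and BAM3 lower in every LN plant (2.60-fold, -1.59, adjusted p = 0.135). BAM9 overlapped between HN and LN at T2, T3 and T4, with changes of -0.30, -0.22 and -0.10 (adjusted p = 0.752, 0.891 and 0.866).

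Averaged over the 4 times, 12 plants against 12, all 3 genes passed. BAM1 rose from HN to LN by 1.31 (SE 0.15, adjusted p = 0.00017), BAM3 changed by -1.77 (SE 0.26, adjusted p = 0.00090) and BAM9 by -0.46 (SE 0.13, adjusted p = 0.0223). Of all genes tested, 16.5% passed this comparison, 7.92% higher and 8.62% lower. The average for BAM9 takes most of its size from the end of dark, where the change was -1.20.

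Whether the nitrogen effect differed between times was tested directly. The interaction test over the 4 times gave an adjusted p of 0.0685 for BAM1, 0.532 for BAM3 and 0.394 for BAM9, none of which passed, and 0.0828% of all genes did. The change from T1 to T3 differed between LN and HN by -1.93 for BAM1 (adjusted p = 0.0681), 1.997 for BAM3 (0.327) and 0.98 for BAM9 (0.327), in a comparison passed by 0.138% of genes. For BAM1 both tests passed without LN_T1 replicate 1, the lowest LN plant at the end of dark (interaction 0.0051, difference -2.31 with adjusted p = 0.0081). They also passed without LN_T4 replicate 3 (0.0465 and 0.0456). Without the 3 farthest libraries the interaction passed for BAM3 (0.0190) and BAM1 (0.0405), and the BAM3 difference was 2.89 (adjusted p = 0.0084). Those libraries were picked from these same values, which favours passing. The larger nitrogen effects at the end of dark were therefore not shown to differ from those at other times with all libraries. The comparison of LN with HN at T1 and the daily changes from T1 rest on the same T1 libraries, so they are not separate evidence.

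Markers of other cell types were read beside these changes at the end of dark. The 10 guard cell genes (KAT2, SLAC1, ALMT12, HT1, FAMA, MYB60 and SRK2E by name) were all tested. Their summed level was 160 to 169 FPKM in HN and 137 to 159 FPKM in LN, lower in LN without overlap, and the gene with the largest part of it was an HT1 kinase gene (Spo12107, means of 66.5 and 60.9 FPKM). Gene by gene, 7 of the 10 had a positive change in LN and 3 a negative one. Only 2 of the positive and 1 of the negative changes passed, where 5.10% of all genes tested were higher and 4.86% lower. Both KAT2 genes (potassium channels, Spo12853 and Spo16760) were higher in LN (0.69 and 0.76, adjusted p = 0.0099 and 0.0404), and another HT1 gene (Spo19244) was lower (-1.59, adjusted p = 0.0021). Spo19244 had the largest fall in mean level of the 10, from 26.5 FPKM in HN to 8.74 FPKM in LN. The lower sum in LN rests on this gene, since the means of the others together were not lower in LN. The 24 leaf cell genes summed to 56242 to 80970 FPKM in HN and 34395 to 59934 FPKM in LN. The 6 epidermis genes, 3 of them tested, summed to 191 to 229 FPKM in HN and 256 to 280 FPKM in LN, with 2 (KCS6, Spo12925, and CER1, Spo19671) at 0 in every library. The 5 root genes summed to 16.5 to 33.1 FPKM in HN and 81.7 to 225 FPKM in LN, nearly all of it from a phosphate transporter gene, PHT14 (Spo19057), while the other 4 are the Casparian strip genes at or near 0. The part of these levels in the BAM changes was not tested.

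The makeup of the BAM mRNA pool differed between nitrogen levels. Because FPKM is per length, the 3 genes can be added within a library. At T1 their sum was 513 ± 53.2 FPKM in HN and 351 ± 110 FPKM in LN, and at T2 it had its lowest means, 91.7 ± 22.4 and 62.3 ± 10.5 FPKM. In HN_T1, BAM3 made up 56.4 ± 6.36% of the sum, BAM9 38.2 ± 6.65% and BAM1 5.40 ± 0.640%. In LN_T1, BAM1 made up 59.8 ± 12.1%, BAM9 25.4 ± 7.90% and BAM3 14.8 ± 10.7%, so BAM1 and BAM3 changed places and their shares did not overlap between nitrogen levels. At T3 BAM3 led at both levels, with 87.8 ± 1.41% in HN and 75.8 ± 6.24% in LN. In the middle of light no gene held a majority in the mean, and the largest shares were 41.9 ± 9.19% for BAM3 in HN and 43.9 ± 3.04% for BAM1 in LN. In the middle of dark the share of BAM3 was 79.0 ± 3.34% in HN and 51.6 ± 19.7% in LN. These shares are descriptions within a library and were not tested. Over all 16 genes named beta-amylase, BAM1 took 48.6 ± 12.7% in LN and 4.68 ± 0.516% in HN at the end of dark, and BAM3 12.02 ± 9.29% and 49.0 ± 5.58%.

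**Figure D3:**
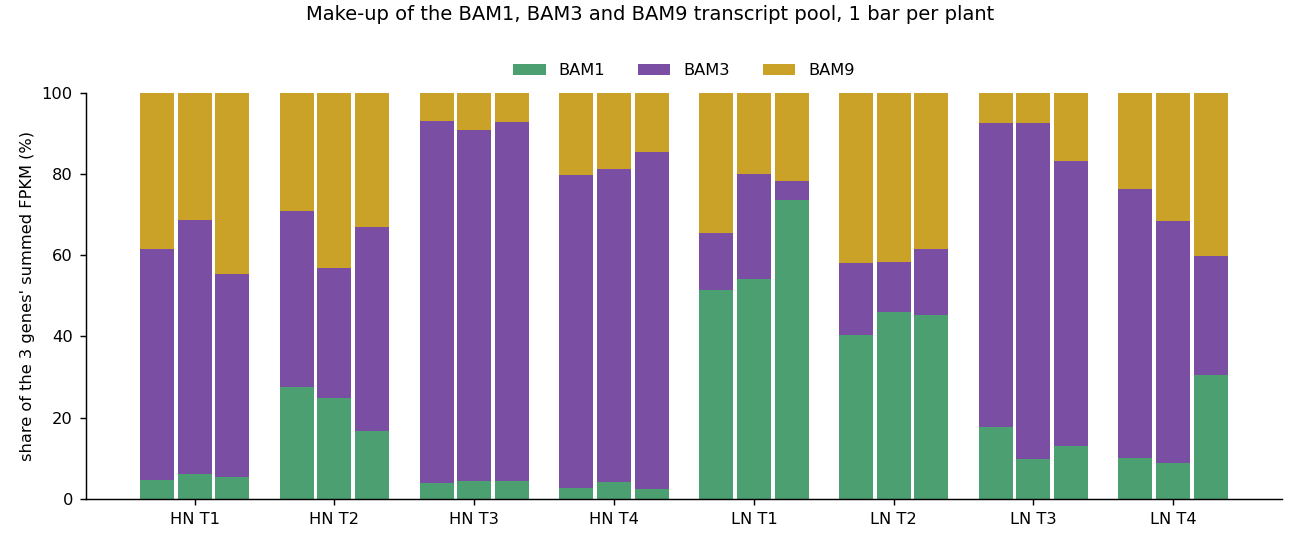
Share of BAM1, BAM3 and BAM9 in their summed FPKM, in percent, with 1 stacked bar per plant and the 3 plants of each group side by side. In the group means BAM3 holds 56.4% of the sum in HN_T1, where BAM1 holds 5.40%, and BAM1 holds 59.8% in LN_T1, where BAM3 holds 14.8%.

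The ratio of BAM1 to BAM3 within a plant does not depend on the scaling of the libraries. It ranged from 0.0835 to 0.109 in the HN_T1 plants and was 3.69, 2.09 and 16.1 in the LN_T1 plants. At T2 it was 0.335 to 0.772 in HN and 2.29 to 3.75 in LN. It was 0.0453 to 0.0518 and 0.121 to 0.238 at T3, and 0.0309 to 0.0528 and 0.150 to 1.04 at T4. At each of the 4 times every LN plant had a higher ratio than every HN plant, and the ratio was above 1 in the LN plants of T1 and T2 and in 1 LN plant of T4, replicate 3. A ratio shows only that the genes changed unequally.

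**Figure D4:**
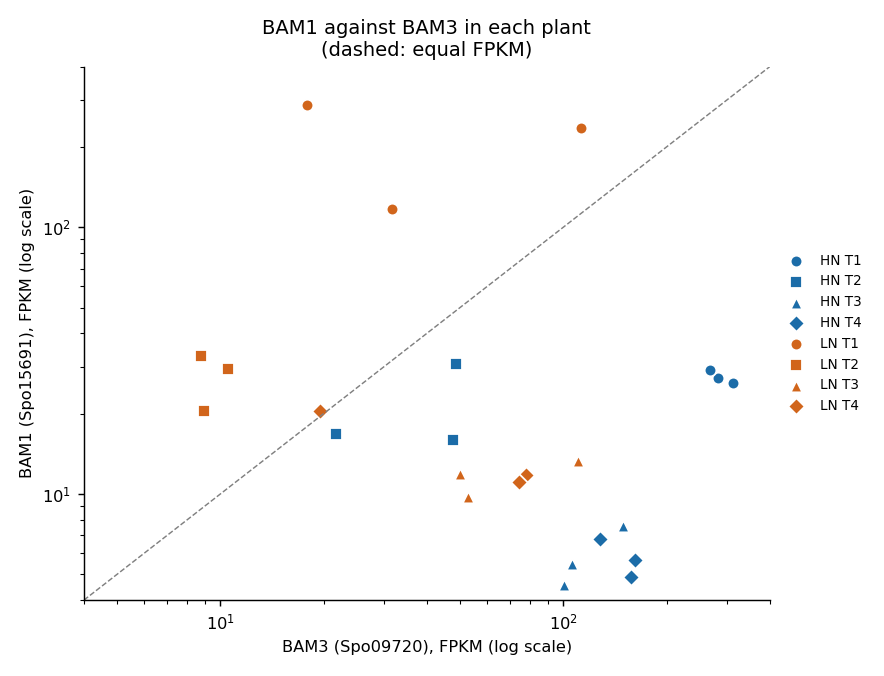
BAM1 level (vertical) against BAM3 level (horizontal) in FPKM, both on log axes, with 1 point per plant, colour for nitrogen level, shape for time and a dashed line where the levels are equal. The HN_T1 plants lie at 26.1 to 29.2 FPKM of BAM1 and 268 to 313 FPKM of BAM3, and the LN_T1 plants at 117 to 288 and 17.9 to 113 FPKM.

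BAM3 shares its place with another annotated gene. Spo09756, on the plus strand of chromosome 6 from 42700362 to 42714005, spans BAM3 on the opposite strand and is also named beta-amylase 3, with a gene length of 579 bases. It averaged 4.86 FPKM and did not change with nitrogen at the end of dark by the test (-0.04, adjusted p = 0.924), where BAM3 changed by -2.80. In HN it changed with time (adjusted p = 0.00155), with its lowest mean in the middle of light (2.18 ± 0.457 FPKM), the time of the lowest BAM3 mean. The libraries were directional, but the sources used here do not say whether the counting used strand, so reads of the 2 genes may have been mixed. BAM1 and BAM9 overlap no other gene of the table.

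The other genes named beta-amylase were few, and their counts of calls were not tested against the shares of all genes. There were 13 besides BAM1, BAM3 and BAM9, of which 12 were tested, and none passed between LN and HN at the end of dark in limma or with voom (2 had an unadjusted p under 0.05, both higher in LN), against 9.97% of all genes. Without the 3 farthest libraries AMYB (Spo20576) was lower (-0.61, adjusted p = 0.0392). With all times averaged, 1 of the 12 was higher in LN, against 16.5% of all genes in either direction. It was BAM2 (Spo30021, 0.34 at a mean of 2.34 FPKM), which is named here after its value was seen. Its call was lost with a common sum of FPKM (adjusted p = 0.0589), with the replicate block (0.0523), without the 3 farthest libraries (0.0692) and in 15 of the 24 fits with 1 library left out. In HN 3 of the 12 changed with time, against 38.9% of all genes, and in LN 1, against 28.7%. These counts became 5 in HN with a common sum of FPKM and 4 in LN without the 3 farthest libraries. A gene named beta-amylase with no number, AMYB (Spo20576), followed the course of a peak at the end of dark, with 20.0 FPKM at T1 and 6.95 FPKM at T3 in HN (-1.41, adjusted p = 0.00021) and 15.8 and 6.10 FPKM in LN (-1.20, adjusted p = 0.0011). BAM7 (Spo01657), in Arabidopsis a nuclear protein with a DNA-binding domain, rose in HN from 5.19 FPKM at T1 to 7.82 FPKM at T3 (0.51, adjusted p = 0.0386). This rise did not pass with a common sum of FPKM (0.0577), with only the HN libraries in the fit (0.0609) or without any 1 of HN_T1 replicates 1 and 2 and the HN_T3 plants. The opposite-strand gene Spo09756 was the third that changed with time in HN. BAM2 (Spo01659, mean 25.5 FPKM), BAM4 (Spo18183, 15.7 FPKM) and BAM8 (Spo17426, 5.79 FPKM) passed neither the F tests of time nor any comparison of LN with HN. In HN the time test of BAM4 and BAM8 passed with a common sum of FPKM (adjusted p = 0.0377 and 0.0489), and in LN that of BAM2 passed without the 3 farthest libraries (0.0303). Reads shared between near-identical genes may be split in a way the sources used here do not give.

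Among the other genes of starch breakdown, as among all genes, more passed the tests of time of day than those of nitrogen. The list, which takes in the 13 other beta-amylase genes above, held 54 genes besides BAM1, BAM3 and BAM9, and 37 were tested. Over the 4 times 16 of them changed in HN and 13 in LN, against 38.9% and 28.7% of all genes. At T1, 1 of 37 was higher in LN and 0 were lower in limma and with voom (3 each way at an unadjusted p under 0.05), with a median change of 0.05 beside 0.01 over all genes tested, of which 9.97% passed. It was AMY2 (Spo18541), an alpha-amylase gene, at 5.59 FPKM in HN and 15.2 FPKM in LN (1.29, adjusted p = 0.0292), and did not pass without any 1 of the HN_T1 plants or LN_T1 replicate 3. Without the 3 farthest libraries, 2 were higher and 3 lower, in a fit where more of all genes passed as well, so the 9.97% does not apply there. Averaged over the day, 2 of 37 were higher and 2 lower, against 7.92% and 8.62% of all genes. DPE2 (Spo06276), the cytosolic glucanotransferase that takes up maltose, was higher by 0.66 (adjusted p = 0.0123), besides BAM2 (Spo30021). PLST4 (Spo00175), named after a plastid glucose transporter, was lower by -0.54 (adjusted p = 0.0030), and another AMY2 gene (Spo16858) by -0.79 (adjusted p = 0.0134). For 0 of the 37 did the interaction of nitrogen with time pass in limma or with voom, and 1 had an unadjusted p under 0.05.

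From T1 to T3, 11 of the 37 rose in HN and 3 fell (median 0.23, beside 0.01 over all genes), and in LN 8 rose and 3 fell (median 0.22). Of all genes, 15.7% rose and 17.1% fell in HN, and 12.2% and 13.8% in LN. With a common sum of FPKM these were 10 and 2 in HN and 8 and 3 in LN, and without the 3 farthest libraries 6 and 2 in LN. Most of those that passed thus rose toward the end of light, when BAM1 and BAM9 were low. The list was matched by name, so not all of them act in starch breakdown. Those that rose include BAM7 (Spo01657) in HN and, at both nitrogen levels, the isoamylases of starch synthesis ISOA1 and ISOA2. Among the enzymes that open the starch granule, GWD1 (Spo25313), the kinase that phosphorylates starch, rose in HN from 25.0 to 87.7 FPKM, and in LN from 26.3 to 77.8 FPKM (1.79 and 1.49, adjusted p = 0.00021 and 0.0014). PWD (Spo21991), the second such kinase, did not pass (0.68 and 0.28, adjusted p = 0.107 and 0.552). Of the phosphatases, LSF1 (Spo18211), a regulator without activity in Arabidopsis, rose in HN (1.22, adjusted p = 0.0011) and gave 0.68 in LN (adjusted p = 0.0535, and 0.0481 with voom), a difference that was not called between nitrogen levels. DSP4 (Spo30025), also called SEX4, did not pass in either (0.07 and 0.12), nor did LSF2 (Spo02065).

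Among amylases and debranching enzymes, AMY3 (Spo25776), a chloroplast alpha-amylase, rose by 1.13 in HN and 1.05 in LN (adjusted p = 0.00074 and 0.0018). PULA1 (Spo07010), which cuts branch points, rose by 1.80 and 1.58 (adjusted p = 1.1e-06 and 6.5e-06). ISOA1 (Spo00237) and ISOA2 (Spo23450), isoamylases of starch synthesis, rose by 1.62 and 0.97 in HN and by 1.38 and 0.93 in LN. The LN rise of ISOA1 was 0.89 (adjusted p = 0.0959) without the 3 farthest libraries and did not pass without LN_T1 replicate 2 alone. ISOA3 (Spo23825), the isoamylase of starch breakdown, did not pass (0.12 and -0.37, adjusted p = 0.830 and 0.489). AMY2 (Spo16858) fell by -1.83 in HN and -1.84 in LN (adjusted p = 0.0018 and 0.0023).

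At the end of the pathway, PHS2 (Spo03283), the cytosolic glucan phosphorylase, rose in HN from 42.8 to 178 FPKM, and in LN from 32.0 to 201 FPKM (2.01 and 2.59, adjusted p = 3.6e-06 and 2.2e-07). Another phosphorylase gene, PHSL1 (Spo26068), passed in HN only. Its HN rise of 0.97 did not pass with the replicate block (adjusted p = 0.0531), with no filter (0.0598) or in 7 of the fits with 1 library left out. MEX1 (Spo12711), the maltose exporter that carries the product of the beta-amylases out of the chloroplast, rose in HN from 6.57 to 35.6 FPKM, and in LN from 9.33 to 30.0 FPKM (2.29 and 1.74, adjusted p = 0.00040 and 0.0049). In LN it was 0.82 (adjusted p = 0.144) without the 3 farthest libraries. DPE2 did not pass between these times (0.18 and 0.47). A glucose transporter gene of the PLST2 name (Spo28135) rose by 0.85 and 0.83 (adjusted p = 0.0011 and 0.0019), and PLST4 (Spo22071) fell by -0.92 and -1.25 (adjusted p = 0.0318 and 0.0066). For PLST4 the HN fall did not pass with a common sum of FPKM (0.0681) or without HN_T1 replicate 2 or 3 or HN_T3 replicate 1 or 3, nor the LN fall without the 3 farthest libraries (-0.77, 0.148) or LN_T1 replicate 2 alone.

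**Figure D5:**
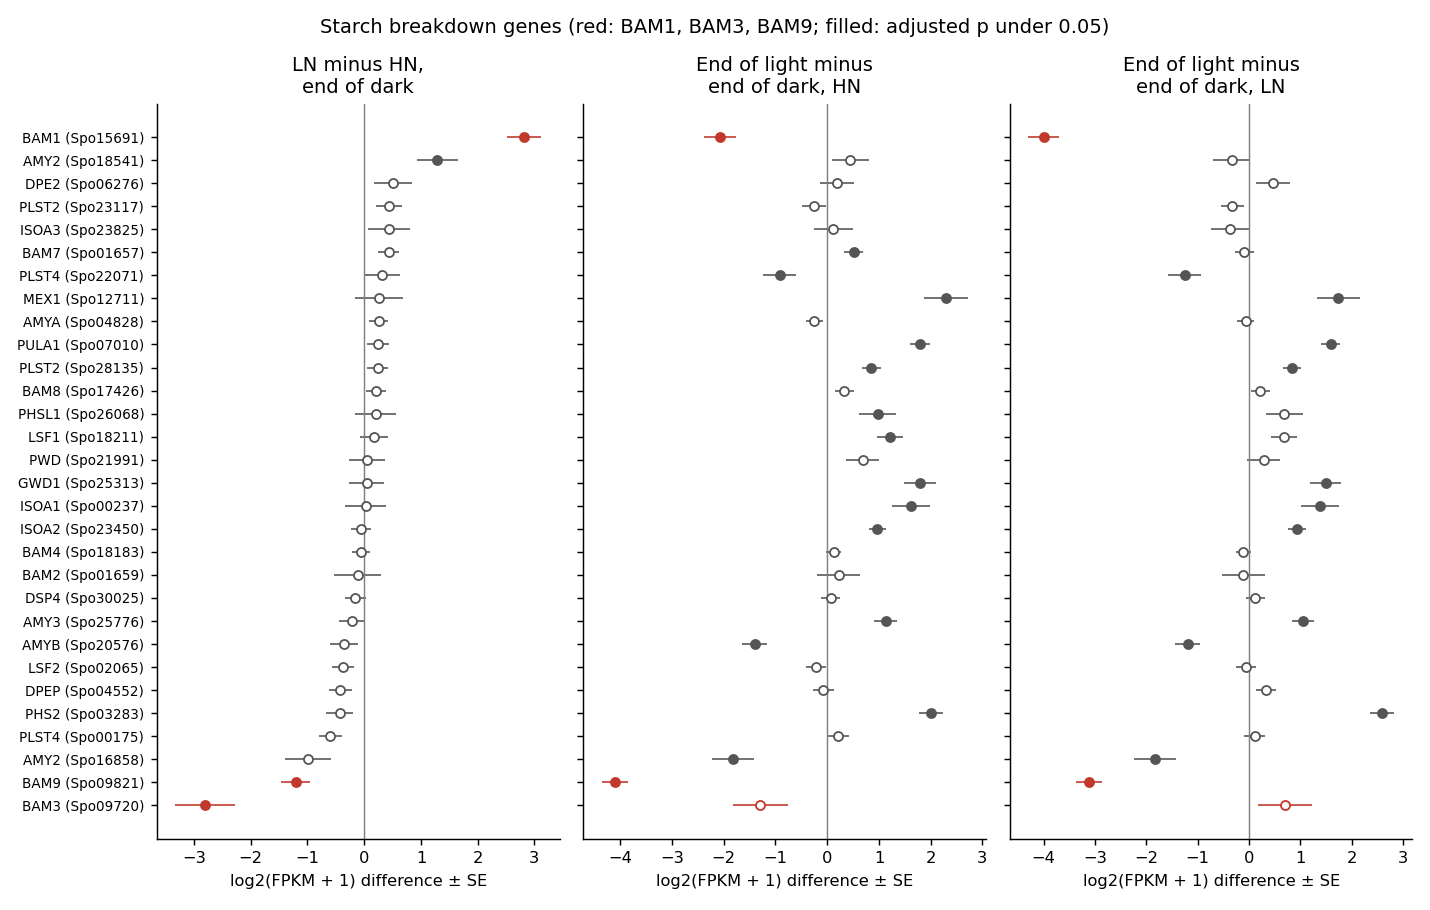
Log2 change ± SE of BAM1, BAM3, BAM9 (red) and the genes of the starch breakdown list with a mean of at least 5 FPKM, from HN to LN at the end of dark (left), and from T1 to T3 in HN (middle) and LN (right), with filled symbols where the adjusted p was under 0.05. On the left BAM1 (2.82) lies highest and BAM3 (-2.80) lowest, and from T1 to T3 BAM9 (-4.10 and -3.12) and BAM1 (-2.07 and -4.0) lie lowest.

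On the starch synthesis list, most of the genes that passed between T1 and T3 rose, as on the breakdown list. Of the 18 genes on that list 14 were tested, and between T1 and T3 8 rose and 1 fell in HN (median 0.67), and 6 rose and 0 fell in LN (median 0.75), where 2 fell at an unadjusted p under 0.05 and 1 fell with voom. The shares of all genes are those given for the breakdown list, 15.7% and 17.1% in HN and 12.2% and 13.8% in LN. Without the 3 farthest libraries, 2 rose and 1 fell in LN (median 0.11). Between LN and HN at the end of dark, 1 of the 14 was higher and 1 lower, against 5.10% and 4.86% of all genes. Without the 3 farthest libraries these were 2 and 2, in a fit where more of all genes passed as well. SSY4 (Spo03861), a starch synthase, was lower (-0.82, adjusted p = 0.0081), but not with only the T1 libraries in the fit (0.0663, or 0.0589 with the replicate block). Another, SSY3 (Spo04154), was higher (0.97, adjusted p = 0.0474), and this call was lost with the replicate block (0.0643), with no filter (0.0608), with only the T1 libraries (0.155, or 0.0928 with the block) and in 16 of the 24 fits with 1 library left out.

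The genes most like each BAM gene in pattern were found by Pearson's r of log2(FPKM + 1) over the 24 libraries among 9399 named genes with a mean of at least 5 FPKM. The libraries share time and nitrogen level, so r is a description and not a test. Most like BAM1 were NRPB (Spo11599, a DCD domain protein, r = 0.935), PIRL7 (Spo05271, a leucine-rich repeat protein, 0.917), RHN1 (Spo17226, a Ras-related protein, 0.917), VP282 (Spo09366, a vacuolar sorting protein, 0.916) and GPAT2 (Spo01533, an acyltransferase, 0.909). At T1 NRPB had 35.1 FPKM in HN and 196 FPKM in LN, and its means at the other times were 9.84 to 27.9 FPKM, the same high point as BAM1. GPAT2 likewise stood at 5.88 and 25.1 FPKM at the end of dark.

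The genes most like BAM3 had lower r. They were PMA4 (Spo24327, a plasma membrane proton pump, 0.874), XB31 (Spo18986, a ubiquitin ligase, 0.852), P2A13 (Spo06680, an F-box protein, 0.852), PAPD7 (Spo21346, a nucleotidyltransferase named after a human protein, 0.849) and CSK2E (Spo09762, a casein kinase subunit, 0.834). PMA4 had 564 FPKM in HN and 267 FPKM in LN at T1, and its lowest means at T2, 230 and 176 FPKM. Most like BAM9 were BAG1 (Spo12945, a chaperone regulator, 0.943), TDA3 (Spo22488, named after a yeast oxidoreductase, 0.937), RPT2 (Spo18450, a phototropism protein, 0.934), BCH2 (Spo04391, a carotene hydroxylase, 0.934) and FAD4 (Spo21711, a chloroplast fatty acid desaturase, 0.931). In HN, FAD4 had 353 FPKM at T1 and 14.9 FPKM at T3, and in LN 107 and 10.5 FPKM. Over the 8 group means instead, 2 of the 5 genes stayed for BAM1, 1 for BAM3 and 3 for BAM9.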

How the data were processed

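Poly-A RNA of spinach leaves was sequenced from directional libraries, per the labels' protocols. The deposited values are FPKM per gene, scaled by the authors, per the file headers. The submitters' processing notes list DESeq2 version 1.20.0, HISAT2 and RSEM, and the role of each tool is not stated. The reference is Sp75, per the series title. The table's coordinates and names were used, since 0 of its IDs matched the reference gene table, and its 1 blank line was left out. FPKM times gene length gave whole multiples of a step for 100% of values (tolerance 0.01), from which fragments were recovered. The steps match median-of-ratios scaling (largest deviation 0.0078%).

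The 18110 genes that reached 1 FPKM in 3 or more of the 24 libraries were tested. limma version 3.58.1 in R version 4.3.3 fitted 8 group means to log2(FPKM + 1), leaving 16 residual degrees of freedom, with moderated variances that follow a trend and a Benjamini-Hochberg adjusted p under 0.05. Within HN and LN the 4 times were compared in an F test and in pairs, and LN with HN at each time, on average and in its interaction with time. The spread behind each p-value is that between plants, taken as independent. The method was tested on simulated data with the same spread for all genes and changes planted only in LN_T1. BAM3 varied more than that in LN_T1, where its SD was 94.6% of its mean, so the simulation does not cover it. The members and the lists were chosen with earlier results of these data known.

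Lists were matched by protein name, and 2 petunia thiolase genes that share the symbol KAT1 were left out of the guard cell list. Genes named by rule are the 3 members, starch breakdown genes with a mean of at least 5 FPKM, and the 5 genes most like each member. Markers are named from their lists at any level, and BAM2 (Spo30021), Spo09756, SSY3 and SSY4 were named after their values were seen. The phloem list matched 1 gene (SUC2, at most 0.422 FPKM, not tested). The root list matched the 4 Casparian strip genes and a phosphate transporter gene, PHT14 (Spo19057, mean 73.4 FPKM), which was the only one tested. The labels number the replicates but do not say what a number shares. Deviations from the group means of same-numbered libraries had a median correlation of -0.0287 (84 library pairs, -0.447 to 0.465). In 1 of the 28 pairs of groups, HN_T1 with LN_T1, all 3 exceeded 0.1 (0.145, 0.414 and 0.136), and blocked values are given there where they change a call. The settings varied were the pseudocount (0.1), the filter (none, or a mean of 5 FPKM), the scaling (a common sum of FPKM), fits on only the compared level or time, the replicate number as a block, voom on recovered fragments, each library left out, and the 3 farthest libraries left out.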

Additional observations from a re-analysis of the deposited data

How the results depend on the processing

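The nitrogen calls at the end of dark and on average over the day held for BAM1, BAM3 and BAM9 with every alternative run, with the exception of BAM3 at the end of dark with only the libraries of that time in the fit (-2.80, adjusted p = 0.0605). Leaving out 1 library moved the end-of-dark change of BAM1 between 2.55 and 3.20, of BAM3 between -3.54 and -2.24 and of BAM9 between -1.43 and -1.05. Without the 3 farthest libraries, BAM3 passed in the middle of light (-1.87), in its difference between nitrogen levels from T1 to T3 (2.89) and in the interaction (0.0190), and BAM1 in the interaction (0.0405). With 1 library left out, the BAM1 interaction ran from 0.0051 to 0.234 and its difference from T1 to T3 from -2.31 to -1.66. Small changes that did not pass turned sign with 1 library left out: BAM9 between nitrogen levels at T3 (-0.47 to 0.12) and T4 (-0.271 to 0.0703), BAM9 from T2 to T4 in HN (-0.0743 to 0.226), BAM1 from T3 to T4 in HN (-0.15 to 0.16) and in LN (-0.00967 to 0.40), and BAM3 in LN from T1 to T4 (-0.298 to 0.996) and from T3 to T4 (-0.78 to 0.20). BAM1 from T3 to T4 also turned in HN with a common sum of FPKM (0.22) and in LN without the farthest libraries (-0.12), as did BAM3 there (0.0326). The cause was not tested. With the replicate block no call of the 3 genes changed (end of dark adjusted p = 0.00011, 0.0050 and 0.0107). With only the T1 libraries in the fit, the block brought BAM3 to 0.0447, an alternative chosen after seeing the data.

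Counts over all genes moved more. The 1805 genes of the end of dark were 316 with only those libraries (649 with the block), 3351 without the farthest 3, and 389 (without LN_T1 replicate 3) to 2662 (without LN_T1 replicate 2) with 1 left out. The 15 interaction genes were 28 with no filter, 2 with a pseudocount of 0.1 or voom, 306 without the farthest 3 and 0 to 101 with 1 left out, and the 25 whose change from T1 to T3 differed were 43, 14, 3 (voom), 355 and 1 to 133. The 67 genes of the middle of dark became 44, 33, 0 and 11 with no filter, voom, only those libraries and without the farthest 3, and 0 (without HN_T4 replicate 3) to 233 (without LN_T4 replicate 2) with 1 left out. The single genes of T2 and T3 became 0 to 25 and 0 to 171. Of the pairs of times in HN, the 1410 genes between T1 and T4 were 2584 with a common sum of FPKM, 2252 with only HN libraries, 2305 without the farthest 3 and 560 (without HN_T4 replicate 2) to 1675 with 1 left out. With 1 left out, T1 to T2 (4772) fell to 3157, T2 to T3 (502) to 247, T2 to T4 (4284) to 2534 and T3 to T4 (3327) to 1422. In LN, only LN libraries gave 1906 for 3624 (T1 to T2), 172 for 340 (T2 to T3), 590 for 1356 (T1 to T4), 451 for 1387 (T2 to T4) and 1081 for 2373 (T3 to T4), and 2736 for the 5197 time genes. The same pairs with 1 left out ran from 1807 to 4274, 192 to 691, 714 to 1576, 470 to 1754 and 1021 to 2733, and without the farthest 3 T1 to T2 was 2393, T2 to T3 1183 and T2 to T4 2129. Each value of the 3 genes rests on at least 201 fragments of 1 plant, and each group on 3 plants.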
